A study of Homo sapiens with 2 samples.

Results

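The genes described here encode collagens, laminins, other glycoproteins of the extracellular matrix and the enzymes that hydroxylate and crosslink collagen. They are 43 of the 25492 genes with a row in both deposited transcript files, and they were taken by name: 11 fibrillar and other collagens from outside the basement membrane, 16 basement membrane genes, 9 glycoproteins and syndecans, and 7 enzymes. A gene's level is the sum of FPKM (the fragments of a transcript, divided by its length and by library depth) over its annotated transcripts and the stranded assembled transcripts that share an intron with it.

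RNA was sequenced from A549, an established cell line from a human lung adenocarcinoma (non-small cell lung cancer in the labels). The control cells carried a short hairpin RNA (shRNA) against LacZ, a bacterial gene, and the knockdown cells carried an shRNA against PSPC1, an RNA-binding protein of nuclear paraspeckles. Both were grown in the same medium with 10% serum and 1% antibiotics, and with 1 library in each group, the differences below lack any replicate check and carry no p-value. The hairpin sequences, the time after the shRNA was introduced, and whether the cells were 1 clone are not stated in the labels.

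The extracellular matrix is laid down outside the cell. Fibrillar collagens give it tensile strength, and sheets of type IV collagen and laminin, bridged by nidogen and perlecan, form the basement membrane under epithelia. Most of these proteins work as multimers, so genes for partner chains are of interest side by side: type IV collagen contains the COL4A1 and COL4A2 chains, type V the COL5A1 and COL5A2 chains, and a laminin 1 alpha, 1 beta and 1 gamma chain. In the endoplasmic reticulum, collagen chains are hydroxylated on proline and lysine by P4HA and PLOD enzymes, and outside the cell the LOX family crosslinks them. In lung cancer, TNC, FN1 and COL4A1 are known as matrix genes of the tumour and its stroma.

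From the widths of the deposited intervals, the control library held about 56200000 fragments and the knockdown library about 57100000. Over the 11483 genes at 1 FPKM or more in either library, the median log2 ratio of knockdown over control, with a pseudocount of 1, was 0.01, and 49.1% of the ratios lay below 0. PSPC1 itself stood at 31.5 ± 1.25 FPKM (control) and 17.7 ± 0.858 FPKM (knockdown), which is 56.3% of the control level. The values after ± span the 95% intervals deposited with each FPKM, which reflect counting and assignment of fragments inside 1 library and no variation between cultures. The epithelial markers EPCAM, CDH1, KRT7, KRT8, KRT18 and KRT19 were all above 1 FPKM, and their summed level was 3708 FPKM with shLacZ and 2920 FPKM with shPSPC1. The 7 fibroblast and pericyte markers summed to 0.842 and 0.766 FPKM and the 6 endothelial markers to 0.279 and 0.232 FPKM, with none at 1 FPKM. Of 5 leukocyte markers, CD14 alone reached 1 FPKM (2.07 and 1.89 FPKM), and CD3E was listed at 0. In such bulk RNA, fewer cells that express a gene and less RNA per cell cannot be told apart, and the part of the lower epithelial markers in the results below was not tested.

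Matrix genes were mostly lower in the PSPC1 knockdown library, by small amounts. Of the 43 genes, 35 reached 1 FPKM in either library, and 30 of these 35 had a log2 ratio below 0. Their median was -0.23, against 0.01 over all genes, and the median gene stood at 81.9% of its control level. By estimated fragments (FPKM multiplied by transcript length, which weighs short assembled transcripts less), 28 of the 35 lay below 0 and the median was -0.24. The intervals of the libraries lay apart for 26 genes that were lower and 2 that were higher, LAMB2 and FBN1, where 25.7% of all genes were lower and 26% higher by that measure. FBN1 turned to -1.17 with annotated transcripts alone or with intron chains in both files alone. The 35 genes were long, with a median longest transcript of 6264 bases against 2952 for all expressed genes. All 2380 expressed genes with a transcript of 5000 bases or more had a median of -0.01, and the 24 matrix genes of that length had a median of -0.21.

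**Figure D1:**
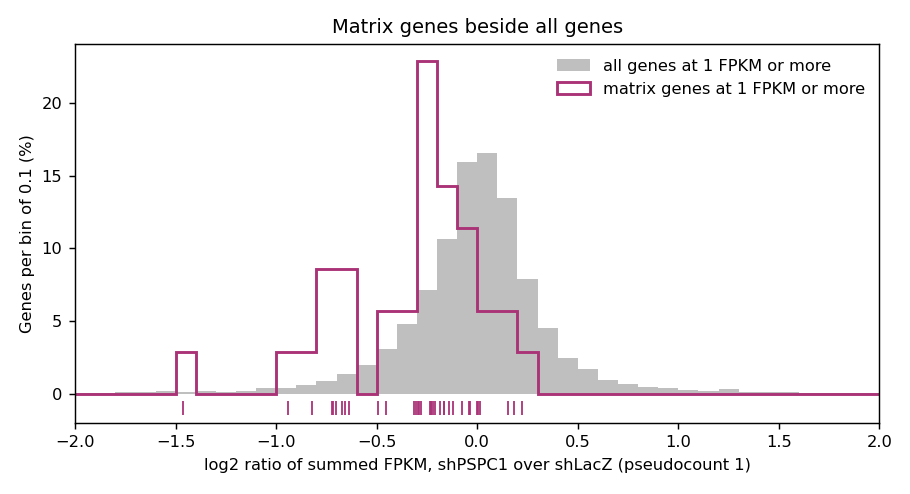
Distribution of the log2 ratio of summed FPKM (x axis, shPSPC1 over shLacZ, pseudocount 1) as the percentage of genes per bin of 0.1 (y axis), for all 11483 genes at 1 FPKM or more (grey) and for the 35 matrix genes (outline, with 1 tick per gene below). The matrix genes peak to the left of 0, at a median of -0.23, and TNC is the single tick left of -1.

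In what follows a gene is said to have fallen or risen where it reached 1 FPKM, changed at least 1.5-fold by both measures and had intervals that did not overlap. By that rule 7 of the 35 genes fell, namely COL5A1, COL6A1, COL6A2, COL4A1, COL4A2, TNC and FBN2, and 0 rose. Over all expressed genes 3.46% fell and 2.25% rose. At 2-fold TNC alone was lower by summed FPKM, by estimated fragments and by both, where 1.99%, 1.66% and 1.33% of all genes were. At 2-fold 0 of the 35 were higher, where 1.68% of all genes were by summed FPKM, 1.52% by estimated fragments and 1.11% by both. At 1.5-fold, LAMA4 and P4HA2 were lower by summed FPKM alone, which makes 9 genes where 5.45% of all genes were lower. SPARC was lower by estimated fragments alone, which makes 8 genes where 4.4% of all genes were lower. By either measure 0 were 1.5-fold higher, where 4.34% of all genes were by summed FPKM and 3.04% by estimated fragments. Both libraries were also scaled to equal summed FPKM without mitochondrial genes. By summed FPKM, 7 matrix genes were then lower at 1.5-fold, against 9 without that scaling, and 0 higher. Over all genes 4.35% were then lower and 5.78% higher. Those 7 are not the 7 that fell, as FBN2 (-0.5846) was short of the limit and LAMA4 (-0.67) was past it.

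**Figure D2:**
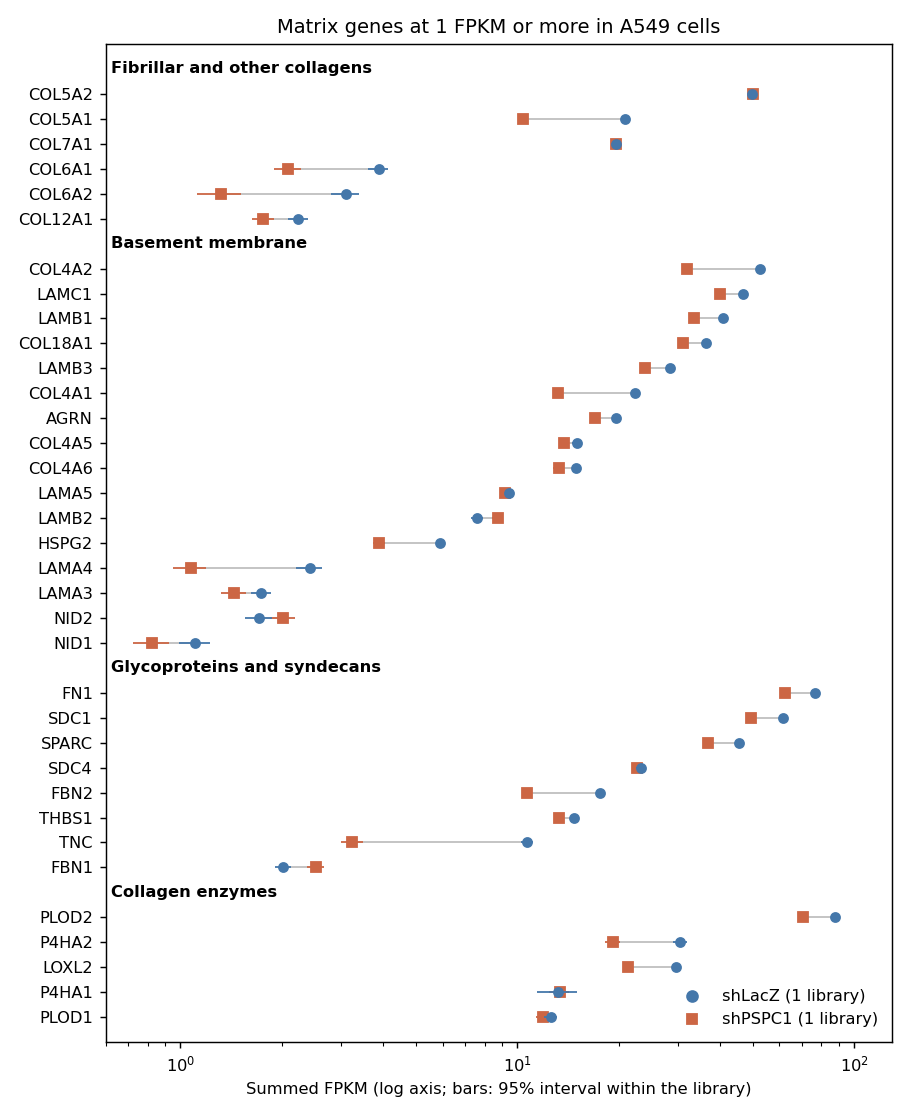
Summed FPKM (x axis, log scale) of the 35 matrix genes at 1 FPKM or more in the shLacZ library (blue circles) and the shPSPC1 library (red squares), with 95% intervals within the library, grouped by class. Red squares lie left of blue circles for most genes, with the widest gap for TNC (10.7 and 3.24 FPKM) and none for COL5A2 and COL7A1.

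The sequence upstream of the genes that fell is shown for reference, since COL4A1 and COL4A2 share theirs. The genes were picked for their fall, so their common direction says nothing about these sequences. COL4A1 and COL4A2 start head to head, and the 126 bases between their starts lie upstream of both. The sequences are RefSeq's, on GRCh38.p14, and each window of the other genes holds the 250 bases before the transcript start, on the gene's own strand. The table held windows for 36 of the 43 genes, and COL6A1 was not among them. Capitals mark motif matches on either strand, with the TATA box searched as TATAA, the CCAAT box by the letters of its name, the GC box as GGGCGG and the AP-1 site as TGANTCA. None of these matches overlap.
COL4A1 to COL4A2, chr13:110307158-110307283, plus strand: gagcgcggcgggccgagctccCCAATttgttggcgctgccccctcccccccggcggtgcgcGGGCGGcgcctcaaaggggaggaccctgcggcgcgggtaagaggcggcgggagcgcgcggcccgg
COL5A1, chr9:134641553-134641802, plus strand: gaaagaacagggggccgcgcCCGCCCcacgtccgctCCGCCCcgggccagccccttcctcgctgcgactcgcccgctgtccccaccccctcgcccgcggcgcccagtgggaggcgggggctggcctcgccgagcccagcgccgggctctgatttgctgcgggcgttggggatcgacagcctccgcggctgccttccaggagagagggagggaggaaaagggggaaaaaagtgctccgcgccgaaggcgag
COL6A2, chr21:46097862-46098111, plus strand: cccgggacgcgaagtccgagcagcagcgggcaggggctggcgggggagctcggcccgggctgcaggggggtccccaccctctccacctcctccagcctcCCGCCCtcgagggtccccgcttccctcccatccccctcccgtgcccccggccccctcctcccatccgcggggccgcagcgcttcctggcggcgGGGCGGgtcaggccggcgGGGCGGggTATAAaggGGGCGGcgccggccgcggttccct
TNC, chr9:115118158-115118407, minus strand: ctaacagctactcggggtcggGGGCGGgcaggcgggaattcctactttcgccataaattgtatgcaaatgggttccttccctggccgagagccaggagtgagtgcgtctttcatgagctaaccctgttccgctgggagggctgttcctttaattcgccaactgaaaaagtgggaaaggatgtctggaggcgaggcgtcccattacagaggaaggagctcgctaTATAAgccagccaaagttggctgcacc
FBN2, chr5:128538246-128538495, minus strand: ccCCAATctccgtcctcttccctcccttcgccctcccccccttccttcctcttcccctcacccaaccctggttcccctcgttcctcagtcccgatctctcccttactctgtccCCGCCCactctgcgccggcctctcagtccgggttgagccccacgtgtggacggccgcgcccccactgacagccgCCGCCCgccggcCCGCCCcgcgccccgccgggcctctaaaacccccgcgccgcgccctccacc

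Each of these 5 windows held at least 1 GC box, with 1 between COL4A1 and COL4A2, 2 for COL5A1, 4 for COL6A2, 1 for TNC and 3 for FBN2. A TATAA match was present for COL6A2 and TNC, and a CCAAT match between the type IV genes and for FBN2. No window held an AP-1 match. Among all 34943 RefSeq windows of 250 bases, 42.5% held a GC box, 32.0% a CCAAT box, 19.0% a TATAA match and 6.59% an AP-1 match, and for windows of 126 bases the shares were 34.5%, 21.1%, 10.6% and 3.51%. Of the 44 windows of 36 matrix genes, 31 held a GC box, 13 a CCAAT box, 11 a TATAA match and 3 an AP-1 match. The matrix windows had a median GC content of 66.6%, against 58% for all windows. These matches are descriptions of the letters and are not evidence of bound factors.

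COL5A1 of type V collagen and COL6A1 and COL6A2 of type VI fell, COL5A2 did not, and the classical fibrillar collagens of fibroblasts were near or at 0 in these epithelial cells. Of the 11 collagens outside the basement membrane, 6 reached 1 FPKM, 5 of these were below 0 (4 by estimated fragments), and 3 fell. The class median was -0.44 (-0.43 by estimated fragments), and the class summed to 99.6 FPKM with shLacZ and 85.2 FPKM with shPSPC1. Over the genes at 5 FPKM or more the median was 0.00, as COL6A1, COL6A2 and COL12A1, all under that level, then drop out.

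COL5A1 encodes a chain of type V collagen, which is built into type I fibrils and limits their width. It fell from 20.9 ± 0.515 FPKM to 10.4 ± 0.297 FPKM, or to 49.7% of the control, with a log2 ratio of -0.94 (bounds -1.01 and -0.87). The estimated fragments were 9050 and 4919, which gives a ratio of -0.84. Its partner COL5A2, the most abundant collagen of this class, stood at 49.9 ± 1.27 and 50.04 ± 0.81 FPKM, a log2 ratio of 0.00 (0.11 by estimated fragments). The level of COL5A2 was therefore 2.38 times that of COL5A1 with shLacZ and 4.81 times with shPSPC1. Most of the COL5A2 signal in the knockdown file lay in an assembled transcript with the annotated introns, and the annotated transcript alone stood at 27.2 and 5.12 FPKM, so the level value rests on counting both. COL5A1 lies on chromosome 9 (137533652 to 137736689, plus strand) and COL5A2 on chromosome 2, in the coordinates of the deposited files.

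COL6A1 and COL6A2 encode chains of type VI collagen, a beaded filament around cells, and lie in 1 cluster on chromosome 21. COL6A1 (47401663 to 47424963, plus strand) fell from 3.87 ± 0.26 to 2.09 ± 0.19 FPKM, a log2 ratio of -0.66 (bounds -0.83 and -0.49), with 885 and 484 estimated fragments. COL6A2 (47518033 to 47552763, plus strand) fell from 3.10 ± 0.299 to 1.32 ± 0.199 FPKM, a log2 ratio of -0.82 (bounds -1.06 and -0.60), with 559 and 239 estimated fragments. Both intervals were well apart, although the levels were low. COL6A3, which encodes the chain with which they assemble, was at 0.0124 FPKM in the control and listed at 0 in the other library. The 13 expressed genes within 1 Mb of COL6A2, COL6A1 among them, had a median of 0.00.

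Other collagens of the class moved little. COL7A1, the collagen of anchoring fibrils, stood at 19.6 FPKM in both libraries, and COL12A1, a fibril-associated collagen, at 2.23 and 1.76 FPKM (log2 ratio -0.23). COL1A1 (0.529 and 0.398 FPKM), COL3A1 (0.0868 and 0.0953 FPKM) and COL13A1 (0.321 and 0.146 FPKM) stayed under 1 FPKM. COL1A2 was listed at 0 in both libraries.

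**Figure D3:**
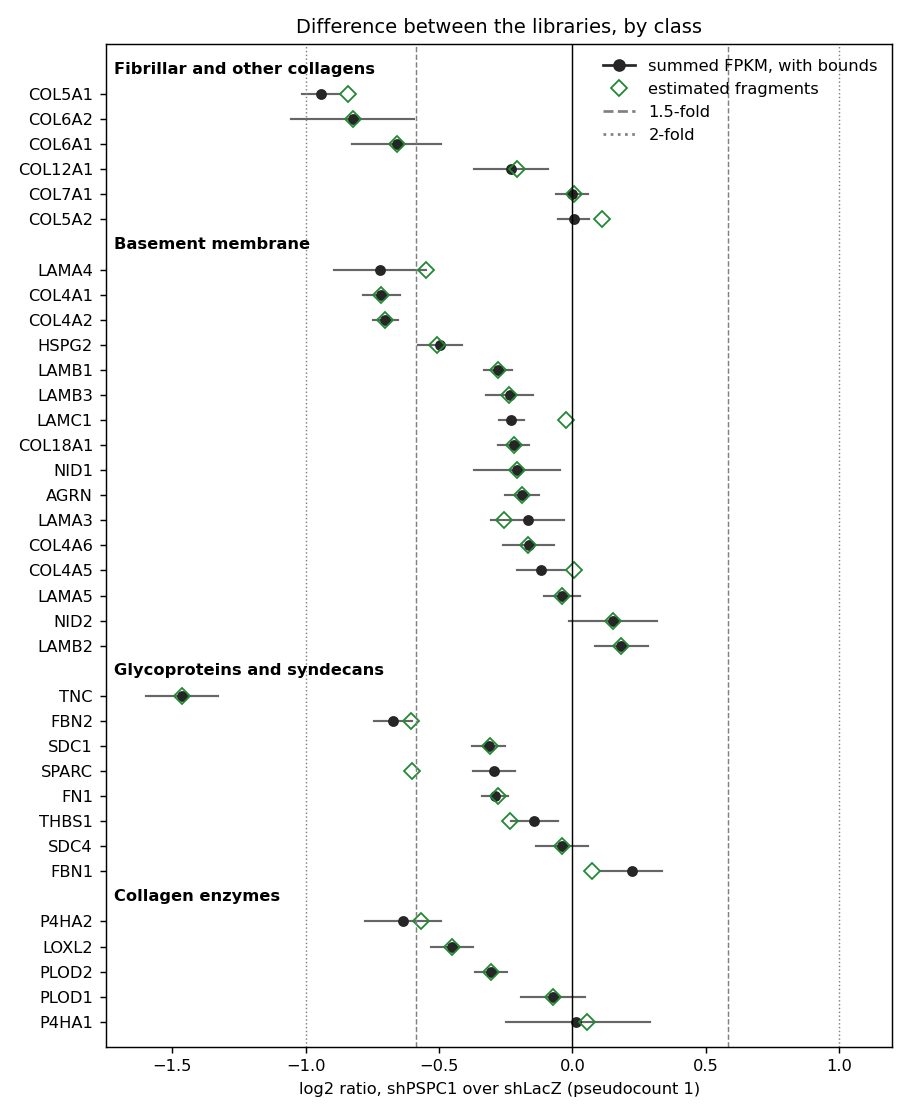
Log2 ratio of shPSPC1 over shLacZ (x axis, pseudocount 1) for the 35 matrix genes by class, from summed FPKM (black points, with bounds from the 95% intervals) and from estimated fragments (open green diamonds). Dashed and dotted lines mark 1.5-fold and 2-fold. Both marks lie left of the lower 1.5-fold line for 7 genes, and LAMC1 and SPARC show the widest gaps between the measures.

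Basement membrane genes were lower as a class, and the type IV pair COL4A1 and COL4A2 fell by both measures. All 16 reached 1 FPKM, 14 lay below 0 (13 by estimated fragments) and 2 fell. The class median was -0.21 by both measures, and the class summed to 307 FPKM with shLacZ and 245 FPKM with shPSPC1.

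COL4A1 and COL4A2 encode the chains of the common type IV collagen network. COL4A1 (chromosome 13, 110801310 to 110959496, minus strand) fell from 22.3 ± 0.50 to 13.2 ± 0.381 FPKM, or to 59.1% of the control, with a log2 ratio of -0.72 (bounds -0.79 and -0.65) and 7998 and 4802 estimated fragments. COL4A2 (110959631 to 111165374, plus strand) fell from 52.6 ± 0.784 to 32.0 ± 0.608 FPKM, or to 60.8%, with a log2 ratio of -0.70 (bounds -0.75 and -0.65) and 18055 and 11144 estimated fragments. COL4A2 was the most abundant gene of the class in the control. The bounds of the pair overlapped, and the level of COL4A2 was 2.36 times that of COL4A1 in the control and 2.42 times after knockdown. Each gene had a single annotated intron chain that carried all of its FPKM in both files, so neither value rests on assembled forms. The 8 expressed genes within 1 Mb of COL4A2 (COL4A1 among them) had a median of -0.21 (-0.05 by estimated fragments), and none beside COL4A1 fell. The 195 expressed genes of chromosome 13, which also carries PSPC1, had a median of -0.03.

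The other type IV pair, COL4A5 and COL4A6, encodes chains of a network in epithelial basement membranes and is also arranged head to head. Between the COL4A5 start and the outermost COL4A6 start lie 379 bases. The main COL4A6 form starts further from COL4A5, at 107681658 against 107682704 for the less abundant form, in the files' coordinates. COL4A5 stood at 15.04 and 13.8 FPKM (log2 ratio -0.12, and 0.00 by estimated fragments), and COL4A6 at 14.99 and 13.3 FPKM (-0.16, and -0.17 by estimated fragments). The ratio of COL4A5 to COL4A6 was 1.00 with shLacZ and 1.04 with shPSPC1 (1.00 and 1.14 by estimated fragments). The COL4A5 level with shPSPC1 includes an assembled transcript at 2.19 FPKM that was found in that file only. With annotated transcripts alone the COL4A5 log2 ratio was -0.35. Neither gene fell. COL18A1, the source of endostatin, stood at 36.3 and 31.0 FPKM (-0.22).

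Laminin genes differed by chain. Among alpha chains, LAMA4 stood at 2.42 ± 0.216 and 1.07 ± 0.118 FPKM, a log2 ratio of -0.72 (-0.55 by estimated fragments). Of the LAMA4 FPKM in the control, 84.7% lay in intron chains of that file only, and the direction depends on the forms counted: the ratio was 0.60 with annotated transcripts alone and -0.20 with the most abundant transcript. LAMA3 stood at 1.74 and 1.44 FPKM (-0.17) and LAMA5 at 9.48 and 9.19 FPKM (-0.04). Among beta chains, LAMB1 stood at 40.9 and 33.6 FPKM (-0.28), LAMB3 at 28.5 and 24.0 FPKM (-0.24) and LAMB2 at 7.59 and 8.75 FPKM (0.18). The level of LAMB1 was 5.40 times that of LAMB2 with shLacZ and 3.83 times with shPSPC1. LAMC1, the common gamma chain, stood at 46.9 ± 0.873 and 39.9 ± 0.601 FPKM, a log2 ratio of -0.23. By estimated fragments its ratio was -0.02, since a 14-exon assembled transcript at 12.6 FPKM was present in the control file only. Without that transcript LAMC1 stood at 34.3 FPKM in the control and the log2 ratio was 0.21, so the direction for LAMC1 depends on how the form is counted.

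The linkers of the basement membrane were low to moderate in level. HSPG2, which encodes the proteoglycan perlecan, stood at 5.90 ± 0.172 and 3.90 ± 0.159 FPKM, or 66.0% of the control, and its ratio of -0.50 (-0.51 by estimated fragments) was short of 1.5-fold on this scale. AGRN, the proteoglycan agrin, stood at 19.6 and 17.1 FPKM (-0.19). The nidogens had opposite signs: NID1 stood at 1.11 and 0.824 FPKM (-0.21) and NID2 at 1.72 and 2.02 FPKM (0.15), and the intervals of NID2 overlapped.

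**Figure D4:**
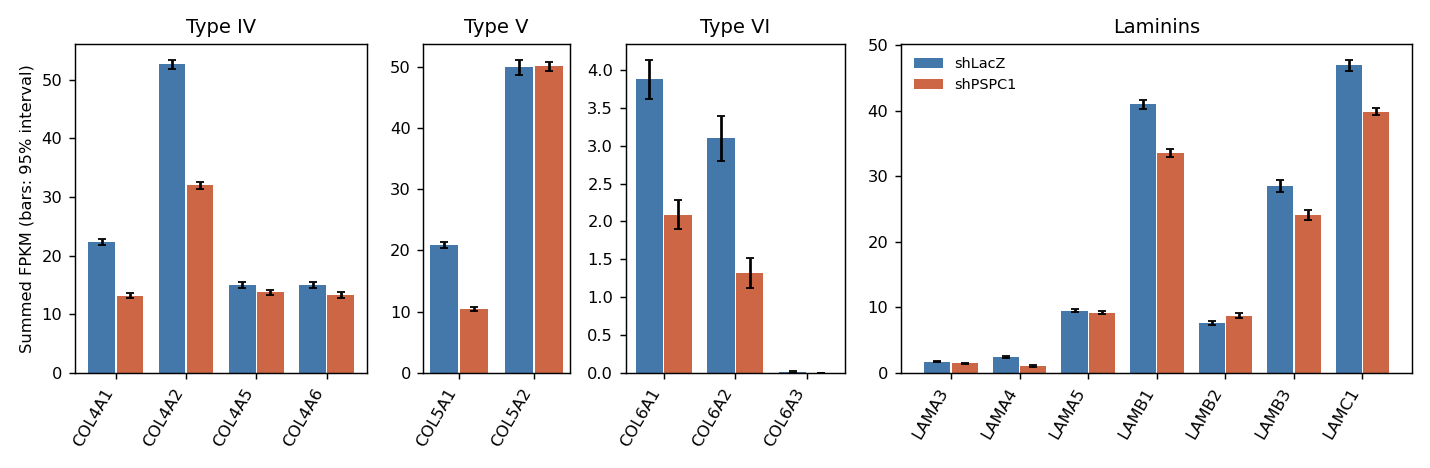
Summed FPKM (y axis, one linear scale per panel, starting at 0) of genes for partner chains of type IV, V and VI collagen and of laminin chains in the shLacZ (blue) and shPSPC1 (red) libraries, with 95% intervals within the library. COL4A1 and COL4A2 are both lower in the knockdown library, while of the type V pair COL5A1 is lower and COL5A2 level.

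Among the glycoproteins TNC and FBN2 fell, and fibronectin, the most abundant, was lower by less. Of the 9 genes, 8 reached 1 FPKM, and 7 of these were below 0 by both measures. The class median was -0.29 by both measures, and the class summed to 252 FPKM with shLacZ and 201 FPKM with shPSPC1.

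TNC encodes tenascin C, a hexameric glycoprotein of remodelling and tumour matrix. TNC (chromosome 9, 117781854 to 117880536, minus strand) fell from 10.7 ± 0.442 to 3.24 ± 0.241 FPKM, or to 30.3% of the control, with a log2 ratio of -1.46 (bounds -1.60 and -1.33). The estimated fragments of TNC were 4155 and 1221, a ratio of -1.47. The files split this signal over different forms: 75.8% of the TNC FPKM with shLacZ and 46.2% with shPSPC1 lay in intron chains found in 1 file only. With the chains in both files alone, the TNC log2 ratio was -0.39, and with annotated transcripts alone it was -0.56, both short of 1.5-fold. The 7 expressed genes within 1 Mb of TNC had a median of 0.31.

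FBN2 encodes fibrillin 2, a microfibril protein of developing tissue. FBN2 (chromosome 5, 127593601 to 127873735, minus strand) fell from 17.7 ± 0.417 to 10.7 ± 0.32 FPKM, or to 60.6% of the control, with a log2 ratio of -0.67 (bounds -0.75 and -0.60) by summed FPKM and -0.60 by estimated fragments, just past the limit of 1.5-fold. With both libraries scaled to equal summed FPKM without mitochondrial genes, the FBN2 ratio was -0.5846, just short of that limit, and the call was lost. FBN1, its paralogue, stood at 2.02 ± 0.112 and 2.52 ± 0.146 FPKM, a log2 ratio of 0.22 (0.07 by estimated fragments). The level of FBN2 was 8.76 times that of FBN1 with shLacZ and 4.25 times with shPSPC1.

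FN1, fibronectin, was the most abundant glycoprotein gene, at 76.7 ± 1.38 and 62.5 ± 1.04 FPKM (log2 ratio -0.29, and -0.28 by estimated fragments). SPARC, a collagen-binding matricellular protein, stood at 45.5 ± 1.17 and 37.0 ± 1.11 FPKM, a log2 ratio of -0.29 (-0.60 by estimated fragments). Of the SPARC FPKM with shPSPC1, 87.7% lay in an intron chain of that file only. The SPARC ratio ran from -2.50 to 0.09 over the alternatives, the latter with the most abundant transcript, so its direction depends on the forms counted. THBS1, thrombospondin 1, stood at 14.8 and 13.3 FPKM (-0.14). The syndecans are heparan sulfate proteoglycans of the cell surface, and SDC1 stood at 61.6 and 49.3 FPKM (-0.31) and SDC4 at 23.3 and 22.7 FPKM (-0.04). POSTN, periostin, was at 0.00583 FPKM in the control, which is 1 estimated fragment, and listed at 0 in the knockdown library.

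No enzyme of collagen hydroxylation or crosslinking fell by both measures. Of the 7 genes, 5 reached 1 FPKM and 4 lay below 0, with a median of -0.31 by both measures and a sum of 173 FPKM with shLacZ and 137 FPKM with shPSPC1. PLOD2, the lysyl hydroxylase of collagen telopeptides, was the most abundant, at 87.6 ± 1.91 and 70.7 ± 1.38 FPKM (log2 ratio -0.31). P4HA2, a catalytic subunit of prolyl 4-hydroxylase, stood at 30.4 ± 1.51 and 19.2 ± 1.00 FPKM, a log2 ratio of -0.64 by summed FPKM and -0.57 by estimated fragments. Of the P4HA2 FPKM in the control, 52.9% lay in intron chains of that file only, and the ratio ran from -0.90 to -0.25 over the alternatives. The other such subunit, P4HA1, stood at 13.2 ± 1.77 and 13.4 ± 0.897 FPKM (0.01), with overlapping intervals, and its ratio ran from -0.43 to 0.89 over the sets of transcripts counted. LOXL2, a lysyl oxidase, stood at 29.6 ± 0.759 and 21.3 ± 0.64 FPKM, or 72.2% of the control (-0.45). PLOD1 stood at 12.6 and 11.9 FPKM (-0.07). LOX (0.321 and 0.236 FPKM) and LOXL1 (0.0975 and 0.133 FPKM) stayed under 1 FPKM.

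The transcript forms of several matrix genes differ by whole coding exons, and the share of a gene's FPKM in forms with such an exon was compared. In COL5A1, an exon of 69 bases near the end of the gene occurs in 2 mutually exclusive versions, and 1 of them was seen in the control library only. The P4HA1 gene has a like pair of 71 bases, shown because the share of the upstream one differed between the libraries. The P4HA1 exons are read from GENCODE release 29 transcripts on GRCh38, were matched by gene, length and spacing, and are given on the coding strand, where capitals mark the positions at which the pair differs.
P4HA1 upstream exon, chr10:73044981-73045051: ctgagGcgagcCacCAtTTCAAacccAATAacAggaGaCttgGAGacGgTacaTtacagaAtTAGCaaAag
P4HA1 downstream exon, chr10:73043887-73043957: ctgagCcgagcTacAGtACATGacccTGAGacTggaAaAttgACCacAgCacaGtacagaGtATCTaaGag

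The P4HA1 pair is identical at 43 of 71 positions (60.6%). The annotated COL5A1 transcript in the files has the upstream exon and stood at 16.1 ± 0.40 and 10.4 ± 0.297 FPKM. An assembled COL5A1 transcript with the downstream exon had 4.79 ± 0.324 FPKM in the control file and no counterpart in the knockdown file. Forms with the upstream exon thus made up 77.1% (bounds 75.5 and 78.7) of COL5A1 with shLacZ and 100% with shPSPC1. For the upstream form alone the COL5A1 log2 ratio was -0.59, a smaller difference than for the gene. In P4HA1, forms with the upstream exon made up 68.2% (58.7 to 78.0) with shLacZ and 39.3% (34.8 to 43.9) with shPSPC1. Forms with the downstream P4HA1 exon made up 51.5% and 60.7%, with overlapping bounds. The control shares of P4HA1 sum to over 100% because 1 assembled transcript there holds both exons.

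Fibronectin carries a pair of optional type III repeats, extra domains B and A, which are included in cellular and tumour fibronectin and mostly left out of plasma fibronectin. Forms with the extra domain B exon (273 bases, chromosome 2, 216257654 to 216257926 in the files' coordinates) made up 31.7% (30.5 to 32.9) of FN1 with shLacZ and 27.4% (26.4 to 28.5) with shPSPC1. Forms with the extra domain A exon (270 bases, 216245534 to 216245803) made up 75.5% (74.5 to 76.6) and 71.9% (70.9 to 72.9). The bounds lay apart for both extra domain exons, with a difference of about 4 points each, and they cover error within a library only. A further FN1 exon differed by more (267 bases, 216236832 to 216237098). Among forms that hold or skip it whole, it was in 100% with shLacZ and 86.2% (85.4 to 87.0) with shPSPC1. The form that skips this exon stood at 7.17 FPKM with shPSPC1 and had no FPKM with shLacZ.

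Tenascin C also has optional type III repeats. Forms of TNC with a pair of adjacent 273-base exons (117825196 to 117825468 and 117826075 to 117826347) made up 64.4% (61.5 to 67.2) with shLacZ and 41.2% (36.2 to 46.4) with shPSPC1. Forms of TNC with another exon of that size (117810539 to 117810811) made up 36.0% and 40.0%, with overlapping bounds. For the 273-base TNC exons that start at 117808689 and at 117819432 the shares were 100% and 76.3%, with bounds apart. For the one from 117822009 to 117822281 they were 34.0% and 22.6%, also with bounds apart. These shares rest on separate assemblies, as 75.8% of the TNC FPKM in the control lay in intron chains of that file only. In COL12A1, a 273-base exon was in 72.5% (68.2 to 76.7) and 62.5% (57.2 to 67.6). A 21-base COL12A1 exon was in 59.8% (55.0 to 64.5) with shLacZ and 100% with shPSPC1. Of the COL12A1 FPKM, 67.6% with shLacZ and 53.7% with shPSPC1 lay in intron chains of 1 file only. PLOD2 has an alternative exon of 63 bases, which was in 65.8% (64.3 to 67.3) and 64.1% (62.7 to 65.4), with overlapping bounds. In COL4A6, the forms differ by their first exon, and the less abundant one stood at 2.51 ± 0.224 and 3.14 ± 0.33 FPKM while the main one stood at 12.5 ± 0.396 and 10.1 ± 0.416 FPKM.

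**Figure D5:**
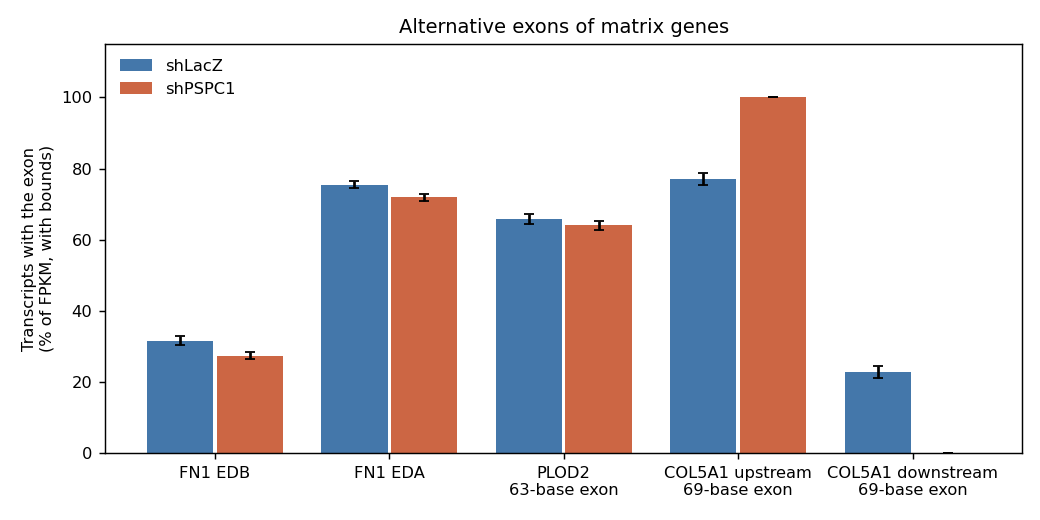
Percentage of a gene's FPKM in transcripts with a named alternative exon (y axis, from 0), in the shLacZ (blue) and shPSPC1 (red) libraries, with bounds from the 95% intervals. The exons shown are extra domains B and A of FN1, the 63-base exon of PLOD2 and the pair of 69-base exons of COL5A1, of which the downstream one is at 22.9% with shLacZ and 0 with shPSPC1.

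In all, 12 intron chains of 8 genes changed their share of the gene by at least 30 points between the files, with intervals apart. These are chains that themselves reached 1 FPKM in either file, and the same count over all genes is not given here. In COL7A1, the annotated form of 118 exons went from 19.6 to 6.24 FPKM while an assembled form of 119 exons stood at 13.4 FPKM in the knockdown file only, at an equal gene level. In SPARC, the annotated form went from 30.3 to 4.55 FPKM, and an assembled form also of 10 exons stood at 32.4 FPKM in the knockdown file only. In FBN1, the annotated form went from 2.02 to 0.343 FPKM beside an assembled form at 2.18 FPKM. These forms were assembled separately in each file, so a form missing from 1 file is not shown to be absent from those cells.

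Genes around this list were read from a wider list of other collagens, laminins, glycoproteins and collagen-folding genes. Of 116 such genes measured, 56 reached 1 FPKM, 40 of these lay below 0 (36 by estimated fragments), and the median was -0.10. By both measures 9 of the 56 fell and 2 rose at 1.5-fold, where 3.46% and 2.25% of all genes did, and 0 passed 2-fold. The genes named below as fallen or risen were chosen after their values were seen.

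Genes that fold, process and export collagen were level as a group, with a median of -0.01 over 24 genes (0.06 by estimated fragments). The most abundant were PPIB, a proline isomerase (396 and 368 FPKM), P4HB, the shared subunit of prolyl 4-hydroxylase (173 and 187 FPKM), and SEC23A, a coat protein of export vesicles (54.9 and 63.3 FPKM), and none of the 3 fell or rose. In this group TGM2, a transglutaminase that crosslinks matrix proteins, fell from 52.4 ± 0.999 to 26.0 ± 0.696 FPKM. P4HA3, a further prolyl hydroxylase subunit, fell from 3.87 to 1.88 FPKM, and FKBP14, a proline isomerase, rose from 3.74 to 6.45 FPKM. Only 5 of 28 other collagens reached 1 FPKM, with a median of -0.01 and none that fell or rose. The most abundant were COL16A1 (3.88 and 2.38 FPKM), COL27A1 (2.25 and 3.54 FPKM) and COL17A1 (1.87 and 1.04 FPKM).

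Other glycoproteins and proteoglycans were lower, with a median of -0.25 over 26 genes (-0.23 by estimated fragments). Of these 6 fell. TGFBI, an adhesion protein of the matrix and the most abundant of them, fell from 464 to 241 FPKM. EFEMP1, a fibulin, fell from 20.8 ± 0.821 to 9.95 ± 0.552 FPKM, and VCAN, the proteoglycan versican, from 5.92 to 2.83 FPKM. LTBP2, a microfibril protein, fell from 5.01 to 2.88 FPKM, VWA1 from 2.23 to 0.99 FPKM and CCN2, a matricellular growth factor, from 1.58 to 0.568 FPKM. SMOC1, a calcium-binding matrix protein, rose from 1.27 ± 0.181 to 4.92 ± 0.561 FPKM, a log2 ratio of 1.39 (0.86 by estimated fragments).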

How the data were processed

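Total RNA of 2 libraries (1 per group) was sequenced, and 1 transcript file per library was deposited. The tools listed in the submitters' processing notes are Cufflinks 2.1.1, TopHat2 2.0.7 and CASAVA 1.8.2, with no roles stated. The authors deposited FPKM values with their 95% bounds for each annotated and assembled transcript, per the labels of the attributes in each file. The genome build, poly(A) selection and strand handling are not given in the sources used here, and coordinates without a named build are the files' own.

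From these, FPKM was summed per gene, and the interval of a sum was the root of the summed squared intervals. Log2 ratios used a pseudocount of 1 and understate the change of low genes. Depth and fragments were recovered from the intervals: the implied fragment number was whole within 0.02 for 95.4% of 29342 control and 95.7% of 35581 knockdown transcripts. Estimated fragments (FPKM times effective length) were put back on the FPKM scale of the longest annotated transcript. The calling rule, a size rule and not a test, asked for 1 FPKM, 1.5-fold or 2-fold, and intervals apart. Every member at 1 FPKM was named, and those past 1.5-fold by both measures and the most abundant of each class were described in full; of the wider list, the rule named the 3 most abundant of a group and those past 2-fold by both measures. Members, lists and rules were chosen with earlier results of these data known. Assembled pieces without a strand were left out of gene levels. The alternatives were other sets of transcripts, filters, pseudocounts and scalings. The scripts used Python 3.11.15, numpy 2.4.6 and pandas 2.3.3 and were tested on simulated data. Some items are not reported here.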

Additional observations from a re-analysis of the deposited data

Results flagged for a closer look

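Assembled pieces of 1 exon without a strand, which entered no gene level, held more estimated fragments in the knockdown than in the control file in 7 matrix genes. In 4 of them the counts, taken with 2 times their square root to each side, did not overlap, and these drew attention. In COL4A5 they held 704 fragments in 11 pieces, against 119 fragments in 4 pieces in the control. In LAMA3 they held 63 fragments against 24. In TNC and in LOX they held 10 fragments each, in 1 piece, against none in the control. By that rule a count of 0 has no width, so the rule cannot show a difference larger than counting error for TNC and LOX. In the other 3, COL7A1 (11 and 23 fragments), COL4A1 (86 and 88.8) and HSPG2 (12 and 14), the ranges overlapped. AGRN went the opposite way, as its 1 strandless piece, of 13 fragments, was seen with shLacZ and none with shPSPC1. The rule cannot decide for AGRN either, because its count with shPSPC1 has no width. Without a strand, reads from the gene and from an antisense transcript cannot be told apart. Over all matrix genes, such pieces held 913 fragments in the knockdown and 265 in the control library. The whole knockdown file also had more pieces without a strand, 36255 against 29208 in the control file. More such pieces were therefore not particular to matrix genes, and their fragments over all genes are not given here.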

How the results depend on the processing

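With 1 library per group, no result could be checked by leaving out a replicate, and the intervals leave out variation between cultures. No paired analysis was possible because each group has 1 library and the labels carry no replicate numbers. Under 11 alternatives COL4A1, COL4A2, COL5A1, FBN2 and TNC kept a log2 ratio below 0 in all 11, and COL6A1 and COL6A2 in all 10 that gave a value. TNC ranged from -1.69 to -0.39 and COL5A1 from -1.001 to -0.59, while COL4A1 and COL4A2 ranged from -0.75 to -0.63 and from -0.72 to -0.61. The 1.5-fold call was lost for TNC with annotated transcripts alone or chains in both files, and for FBN2 with equal summed FPKM. LAMA4 turned to 0.60 with annotated transcripts alone. That setting drops assembled forms with most of the signal, and gave -2.20 for COL5A2, -2.50 for SPARC and -2.24 for THBS1.

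The count of matrix genes lower by 2-fold, 1 by summed FPKM, was 5 with annotated transcripts alone, 3 with intron chains in both files and 4 with a pseudocount of 0.1, where 4.89%, 2.04% and 2.95% of all genes were, against 1.99%. The count higher by 1.5-fold, 0 by summed FPKM, was 2 with annotated transcripts and 1 with the most abundant transcript of each gene, where 9.46% and 6.24% of all genes were, against 4.34%. In the wider list, 0 genes were lower by 2-fold, and 1 with annotated transcripts, 1 with the most abundant transcript and 6 with a pseudocount of 0.1, where 4.89%, 2.24% and 2.95% of all genes were. The single gene higher by 2-fold in summed FPKM, SMOC1, gave way to 0 by estimated fragments, 2 with annotated transcripts (4.86% of all genes), 0 with the most abundant transcript and 0 at 5 FPKM or more.

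Equal summed FPKM without mitochondrial genes moved the median of all genes to 0.09. The median then was -0.16 for all matrix genes, -0.13 for the basement membrane, -0.20 for glycoproteins and -0.21 for enzymes. The collagen median was -0.82 with annotated transcripts, -0.66 with intron chains in both files, -0.0018 at 5 FPKM or more and -0.13 with no filter. The glycoprotein median was -0.69 with annotated transcripts and -0.48 with intron chains in both files, and the enzyme median -0.096 with no filter. Fewer forms or other genes entered in these settings by construction, and further causes were not tested.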
